A study of Mus musculus with 6 samples.

Results

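The comparison set KPC490, KPC630 and KPC850 against KPC142, KPC180 and KPC469, 6 cell lines derived from pancreatic ductal adenocarcinoma (PDAC) of KPC mice, with 3 lines on each side and 1 RNA library per line. The sides were chosen by the lines' own expression: the first 3 lines had the higher mean centred log2 level of epithelial junction and keratin genes. Of the 56953 genes in the table, 10234 had at least 10 CPM (counts scaled to a common library total) in any line, and these are the genes described. The study is titled for the protocadherin Pcdh7 and concerns the entry of CD8+ T cells into pancreatic tumours, but the labels give no infiltration class, treatment, time, passage or batch for any line. All 6 lines share the same labels apart from their names, and nothing states which KPC alleles they carry or whether a line is 1 clone. Because the sides were selected from these same values, no test was made, and every difference is a description of 6 libraries. In all sentences the values of KPC490, KPC630 and KPC850 come first, in that order, followed by those of KPC142, KPC180 and KPC469.

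Epithelial cells are joined to their neighbours by tight junctions, adherens junctions and desmosomes, are braced by keratin filaments, and sort their membrane into an apical and a basolateral face. In the epithelial to mesenchymal transition these structures are lost, repressors of the Snail, Zeb and Twist families bind E-box sequences in epithelial genes, and mesenchymal genes such as vimentin and N-cadherin are switched on. In PDAC, lines and tumours lie at many points between these states, and the classical subtype keeps more of the ductal and gut-like programme than the basal-like one.

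Library totals ran from 16471558 to 18701274 expected counts, so that 1 count was worth 0.0532 to 0.0607 CPM and the floor of 3 counts 0.160 to 0.182 CPM. Mitochondrial genes took 1.61 to 2.23% of counts and the 10 most abundant genes 4.81 to 5.55%, with overlapping ranges on the sides. Markers of blood cells were low: single genes of the B cell list stayed at most at 0.0607 CPM and of the erythroid list at 0.160 CPM. The highest T and NK cell gene was Trac, with 1.69 CPM in KPC850, and the highest myeloid gene Cd68, with 3.78 CPM in KPC630. The summed myeloid markers ran from 2.798 to 5.16 CPM on the first side and from 1.88 to 2.997 CPM on the second, and the T and NK markers from 1.81 to 2.02 and from 0.218 to 1.82 CPM. Of the defining markers, Cd3d, Cd4, Ms4a1, Adgre1 and C1qa had no count in any line. The highest markers of other cell types were Cela1 of acinar cells with 20.6 CPM in KPC180, Tubb3 of neurons with 14.2 CPM in KPC630, and Cspg4 of pericytes with 9.09 CPM in KPC850. The summed fibroblast and pericyte markers ran from 1.28 to 10.8 CPM on the first side and from 1.08 to 9.48 CPM on the second. In bulk RNA, fewer cells of a type and less RNA per cell cannot be told apart.

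Single epithelial genes followed the label of the sides only in part. The sides were set by a score whose exact gene list was not given. The score printed here uses a list of 37 junction and keratin genes chosen to stand in for it. Genes of the same kind set the sides, so its values bear nothing out. The mean centred log2 level of the 31 kept junction and keratin genes was 0.42, 0.57 and 0.66 in KPC490, KPC630 and KPC850 and -0.12, -0.61 and -0.92 in KPC142, KPC180 and KPC469. Krt7, a keratin of simple ductal epithelium, stood at 1113, 2572 and 1863 against 953, 199 and 140.5 CPM. Tjp3, a scaffold protein of tight junctions, stood at 15.97, 16.5 and 67.03 against 1.98, 1.34 and 11.01 CPM. Neither gene overlapped between the sides, although KPC142 came within 1.17-fold of KPC490 for Krt7. Tjp3 lies on chromosome 10, whose genes as a whole followed the sides as described below, and its gap (the lowest log2 CPM of the first side minus the highest of the second) of 0.53 was 0.045 after each chromosome's median was subtracted. Krt19, another ductal keratin, stood at 2062, 2755 and 2657 against 2111, 837 and 887 CPM and overlapped, because KPC142 lay just above KPC490. Spint1, an inhibitor of epithelial serine proteases, stood at 22.4, 6.81 and 0.758 against 1.56, 1.76 and 3.27 CPM, and its lowest line, KPC850, was the line with the highest score.

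Other widely used epithelial genes, chosen after their values were seen, overlapped too. Cdh1 (E-cadherin) stood at 298, 462 and 767 against 510.4, 725 and 399.8 CPM, with KPC490 the lowest of the 6 lines. Krt8, the keratin partner of Krt18, stood at 2393, 3202 and 4179.9 against 3336, 3092 and 843 CPM, and KPC469 alone was low. Epcam, an epithelial adhesion molecule, stood at 7.32, 10.5 and 0.699 against 1.32, 0.243 and 4.58 CPM, and Cldn3, a claudin of tight junctions, at 73.7, 90.7 and 3.91 against 42.6, 0 and 0.599 CPM. Both overlapped because KPC850 was low, under KPC469 for Epcam and under KPC142 for Cldn3. Of the 31 junction and keratin genes, 10 were higher in all 3 lines of the first side than in any of the second (32.3%). Of the list, 0 were lower in all 3 lines, and 21 overlapped. Over all genes kept, 7.89% were higher and 7.30% lower in this way. Genes of the list's kind set the sides, so its high share was built in. Dsc2, a desmosomal cadherin and the 1 member separated by at least 2-fold, stood at 13.4, 29.3 and 28.7 against 0.3595, 1.34 and 5.72 CPM. The sides are therefore named by their score, and "more epithelial" is used only in that sense.

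**Figure D1:**
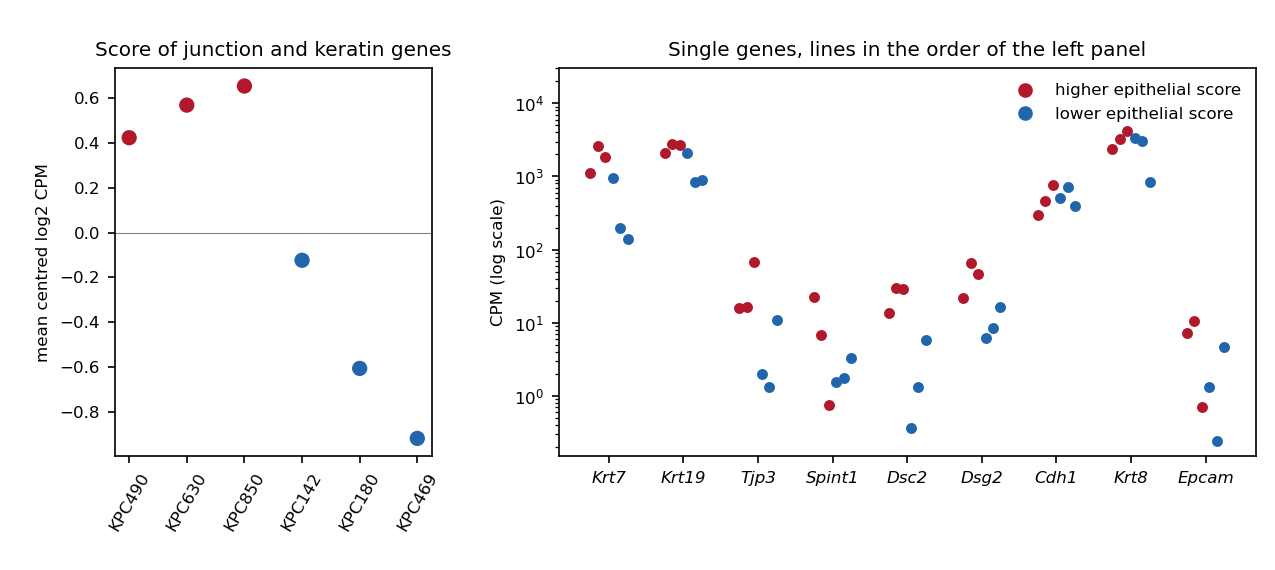
The left panel plots the mean centred log2 CPM of the 31 kept junction and keratin genes in each line, and the right panel the CPM of 9 single genes on a log axis, 1 point per library, red for the 3 lines with the higher score and blue for the other 3. The scores do not overlap (0.42 to 0.66 against -0.92 to -0.12), whereas Krt19, Spint1, Cdh1, Krt8 and Epcam do.

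How far a gene was separated was measured by its gap, the lowest log2 CPM on the higher side minus the highest on the other, with a minus sign where the more epithelial lines are lower. A gene whose sides overlap has a gap of 0. Of the 10234 genes, 807 (7.89%) were higher without overlap in the more epithelial lines, 747 (7.30%) were lower, and 84.8% overlapped. Most of these separations were slight, with a median gap of 0.15 log2 units for the higher genes and -0.19 for the lower ones, or 1.11-fold and 1.14-fold. At a gap of 1 or more, a separation of at least 2-fold between the nearest lines, there were 50 higher genes (0.489%) and 8 lower ones (0.0782%). Just inside this limit was Ddah1, with a gap of 1.001, and just outside it Ifngr1, with 0.98. On the lower side the nearest genes were Ranbp3l with a gap of -1.19 log2 units and Arid5a with -0.99. A gene that passes the level of 10 CPM through its high side alone had to differ: 38 of the 50 higher genes and 7 of the 8 lower genes were under 10 CPM in every line of the other side.

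The sides were not a pair of tight clusters. The median absolute log2 difference between lines over the 10234 genes was 0.30 to 0.32 among the 3 more epithelial lines and 0.37 to 0.41 among the 3 others, while the 9 pairs across the sides gave 0.33 to 0.41. Within the first side 608 genes varied by 4-fold or more, and within the second side 1064 did. KPC142, KPC180 and KPC469 thus differed among themselves as much as they differed from the more epithelial lines.

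Sequence upstream of the most widely separated genes is shown because repressors of epithelial genes bind E-boxes. The letters are bases 250 to 51 before the RefSeq transcript start on GRCm38.p6, in lower case with the E-box letters CAGGTG or CACCTG in capitals, both strands being covered by the pair. Gca lies on the plus strand (chr2:62664077-62664276) and Cadps on the minus strand (chr14:12823130-12823329).
Gca: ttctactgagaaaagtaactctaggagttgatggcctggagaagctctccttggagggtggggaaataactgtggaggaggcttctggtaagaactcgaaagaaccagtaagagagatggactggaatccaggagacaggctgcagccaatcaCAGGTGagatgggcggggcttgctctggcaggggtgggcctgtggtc
Cadps: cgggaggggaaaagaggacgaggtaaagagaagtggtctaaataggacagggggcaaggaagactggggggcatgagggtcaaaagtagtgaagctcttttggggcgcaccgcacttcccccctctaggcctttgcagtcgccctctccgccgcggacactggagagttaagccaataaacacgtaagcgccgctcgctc
The stretch of Gca, the higher gene, holds 1 such E-box and that of Cadps, the lower gene, 0, and the same stretch of Cyp2j6, a higher gene (chr4:96553702-96553901, minus strand), holds 0. Adcy7, a lower gene with 3 starts in RefSeq, holds 1 before one of them (chr8:88293954-88294153, plus strand) and 0 before the others. Over windows of 250 bases before to 50 after the start, 20.03% of all 27025 genes with a RefSeq promoter and 16.4% of the kept genes with one held these letters. A promoter was found for 8091 of the kept genes, for 30 of the 50 higher genes and for 6 of the 8 lower ones. Each of these was under 80%, so a comparison of shares, that of the kept genes included, would be void and none was made.

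Of the 15 higher genes with the widest gap, several act in adhesion or at the cell membrane. Tmigd1, an adhesion protein of intestinal and kidney epithelium, stood at 63.9, 54.3 and 68.8 against 7.49, 0.971 and 7.85 CPM. Its lowest value on the first side was 6.91-fold above (counting interval 5.802 to 8.29) the highest on the second. Ceacam1, a homophilic adhesion molecule that also binds inhibitory receptors of T cells, stood at 65.98, 18.9 and 21.4 against 1.56, 3.398 and 3.32 CPM. The 3 values of the first side all lay above 18 CPM and those of the second all under 4 CPM, with KPC490 the highest line. Tmtc2, an enzyme of the endoplasmic reticulum of the family that adds mannose to cadherins, stood at 13.5, 9.64 and 17.7 against 0.959, 1.46 and 1.04 CPM, 6.62-fold apart (counting interval 4.31 to 10.6) between the nearest lines. It lies on chromosome 10 as well, and its gap of 2.63 log2 units was 2.47 after such centring.

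Genes of membrane traffic and of the cytoskeleton were also among the 15. Hook1, which links cargo to microtubules, stood at 29.7, 46.5 and 47.3 against 0.599, 1.94 and 5.39 CPM, 5.502-fold apart (counting interval 4.43 to 6.89) between the nearest lines. Psd4, an exchange factor for a small GTPase of endocytic membranes, stood at 55.7, 44.9 and 44.6 against 6.53, 8.19 and 6.81 CPM. Its values were even within the sides, since neither side varied by more than 1.3-fold. Vav3, a guanine nucleotide exchange factor, stood at 14.3, 8.94 and 4.66 against 0.899, 0.121 and 0.926 CPM. Ppfibp2, a liprin, stood at 8.83, 7.35 and 14.98 against 1.38, 0.8496 and 0.218 CPM, and no line of the second side passed 1.4 CPM.

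Other members of the 15 act in metabolism or signalling. Gca encodes grancalcin, a calcium-binding protein, and stood at 9.06, 16.8 and 12.6 against 0.0599, 0.485 and 0.708 CPM. The nearest lines, KPC490 and KPC469, were 12.8-fold apart (counting interval 7.27 to 24.6). Cyp2j6, a cytochrome P450, stood at 3.78, 11.5 and 19.7 against 0, 0.182 and 0.327 CPM, with no count in KPC142 and 3 and 6 counts in the other two lines. Fabp5, a carrier of fatty acids, stood at 107, 87.8 and 67.4 against 1.98, 5.95 and 14.98 CPM. All 3 lines of the first side exceeded the highest line of the second by at least 4.501-fold (counting interval 3.94 to 5.15). Smad9, a transducer of bone morphogenetic protein (BMP) receptors, stood at 10.6, 12.2 and 10.7 against 0.2996, 0.789 and 1.91 CPM. St8sia6, a sialyltransferase, stood at 11.6, 2.34 and 1.87 against 0.2397, 0 and 0.272 CPM and was high only in KPC490 among the lines of its side. Prelid2 stood at 5.401, 6.602 and 11.3 against 1.08, 0.121 and 0.218 CPM.

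Rps4l and Clec2f complete the 15 and are uncertain, because each belongs to a family with close copies among which reads could be split. Rps4l, related to the ribosomal protein gene Rps4x, stood at 7.09, 14.7 and 12.2 against 0.479, 0 and 0.381 CPM, the widest gap among the higher genes at 3.6 log2 units. Clec2f, a C-type lectin, stood at 11.6, 8.78 and 8.16 against 0, 0.607 and 1.36 CPM. Neither had a fractional expected count in any library.

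Further genes of at least 2-fold separation were chosen after their values were seen. Ildr2, a protein of the family found where 3 cells meet, stood at 32.1, 147 and 197 against 0, 3.58 and 8.72 CPM. Clca1, a secreted protein of goblet cells, stood at 18.2, 14.7 and 14.6 against 1.86, 0.364 and 4.195 CPM, and Ffar4, a receptor for long-chain fatty acids, at 29.5, 24.1 and 40.5 against 7.37, 0.971 and 8.88 CPM. In each of these genes the first side lay above the second by more than 2.7-fold at the nearest lines. Gda, which deaminates guanine, stood at 38.8, 70.97 and 54.97 against 4.43, 0.9103 and 8.99 CPM. Gpd1, which joins glycolysis to lipid synthesis, stood at 76.3, 81.03 and 155 against 13.1, 11.9 and 24.4 CPM, and Unc93b1, a chaperone of endosomal Toll-like receptors, at 9.002, 15.6 and 13.6 against 2.34, 2.31 and 0.218 CPM. Sox17, a transcription factor of the endoderm, was separated but uneven, at 46.00, 4.15 and 8.102 against 0, 1.699 and 0 CPM.

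**Figure D2:**
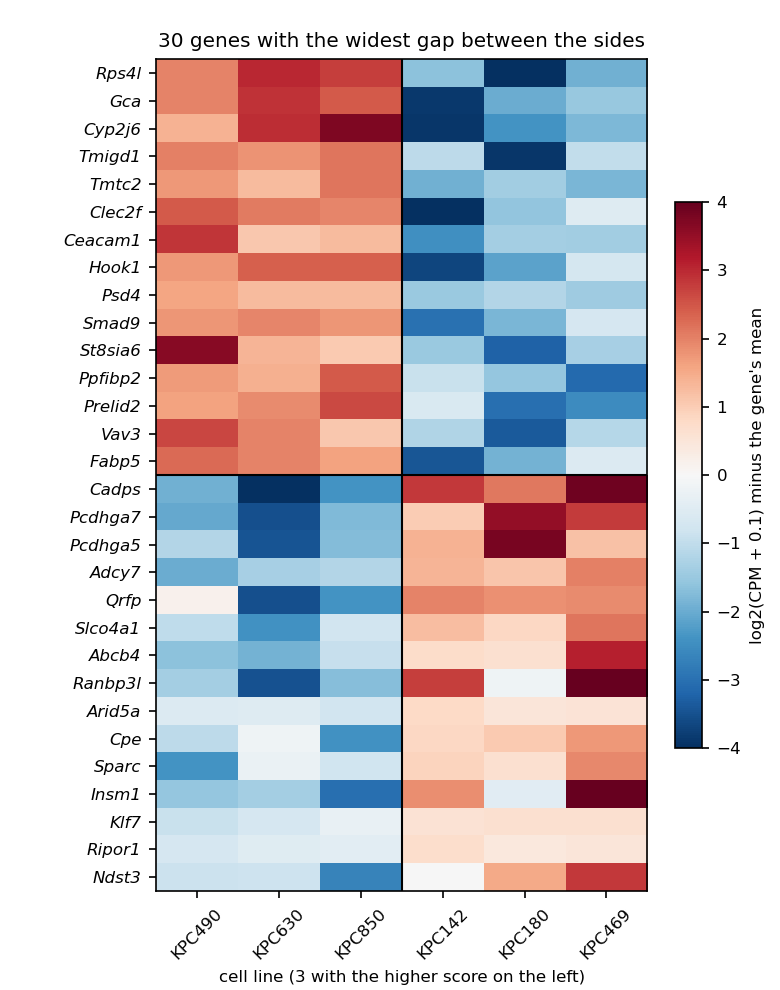
Each row is 1 of the 15 higher and 15 lower genes with the widest gap outside the junction and keratin list, each column 1 library, and the colour gives log2(CPM + 0.1) minus the gene's mean over the 6 lines. Every row changes colour at the vertical line by construction. Arid5a, Klf7 and Ripor1 are pale, with side differences of -1.07, -1.31 and -0.99 log2 units, whereas Cadps and Insm1 reach -5.17 and -3.34.

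The lower genes were fewer and led by Cadps, which primes dense-core vesicles for release. It stood at 0.523, 0 and 0.3497 against 16.7, 10.1 and 34.4 CPM. The gap of 4.0 log2 units was the widest in either direction, and the lowest line of the second side, KPC180, was 19.3-fold above (counting interval 9.91 to 42.9) the highest of the first. Qrfp, a neuropeptide precursor, stood at 5.98, 0.373 and 0.933 against 21.4, 19.00 and 19.9 CPM, and Insm1, a transcription factor of neuroendocrine cells, at 0.174, 0.213 and 0 against 2.82, 0.485 and 18.7 CPM. Insm1 was abundant in KPC469 only, and its nearest lines, KPC180 and KPC630, had 8 and 4 counts, a ratio of 2.28 with a counting interval of 0.611 to 10.3. Cpe, which trims prohormones, stood at 66.6, 123 and 25.8 against 244, 282 and 462 CPM. Cpe lies on chromosome 8, and its gap of -0.99 log2 units was -0.54 after chromosome medians were subtracted. The endocrine marker list did not follow these genes. Of its 11 members, 10 stayed under 1 CPM in every line and 7, Neurod1 and Nkx2-2 among them, had no count. The highest was Pax6, with 7.10 CPM in KPC180.

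Transporters and signalling genes made up much of the remainder. Slco4a1, an organic anion transporter, stood at 27.5, 10.3 and 32.4 against 129, 97.6 and 246 CPM, and the nearest lines were 3.01-fold apart (counting interval 2.73 to 3.32). Abcb4, a phospholipid flippase of bile canaliculi, stood at 0.523, 0.426 and 0.933 against 3.12, 2.91 and 16.7 CPM, with KPC469 far above the others. Adcy7, an adenylyl cyclase, stood at 2.09, 3.301 and 3.67 against 22.1, 18.4 and 34.7 CPM. It lies on chromosome 8, and its gap went from -2.29 to -1.70 log2 units when each chromosome's median was subtracted. Ranbp3l stood at 1.51, 0.266 and 1.17 against 27.9, 3.58 and 64.7 CPM, with KPC180 far below the other lines of its side. Klf7, a zinc finger transcription factor, stood at 21.1, 24.3 and 31.7 against 57.5, 61.2 and 60.2 CPM, and neither side varied by more than 1.5-fold. Arid5a, an RNA-binding protein that stabilises inflammatory transcripts, stood at 13.9, 14.2 and 11.8 against 34.99, 28.3 and 29.4 CPM.

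Ndst3, a heparan sulphate enzyme, stood at 1.68, 1.704 and 0.408 against 3.12, 9.04 and 22.99 CPM. Ripor1, also on chromosome 8, stood at 31.1, 35.5 and 37.2 against 82.3, 66.6 and 70.4 CPM, and its gap of -0.84 became -0.24 log2 units after chromosome medians were subtracted. Pcdhga7 and Pcdhga5, clustered protocadherins that share constant exons, stood at 0.174, 0 and 0.233 against 2.22, 13.05 and 7.85 CPM and 0.639, 0.0532 and 0.408 against 4.25, 22.9 and 3.705 CPM. Both are uncertain, as their expected counts were fractional in 3 and 6 of the libraries, which RSEM gives where reads fit several transcripts. Among the other genes printed, expected counts were fractional in 3 libraries for Ccl25, in 4 for Ildr2 and Hk1, in 5 for Gpd1 and Pcdh7, and in 6 for Krt8, Klf3, Irf1, Hsp90b1, Stk11, Esrp2 and Gata6. Their values carry the same uncertainty, and those of Gca, Fn1, Hook1, Cftr and Sox17 do so in 1 or 2 libraries.

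The mesenchymal list did not mirror the epithelial one gene for gene. Of its 19 kept members, 4 were lower without overlap in the more epithelial lines (21.1%, beside 7.30% of all genes), 0 were higher, and the median side difference was -0.40 log2 units beside 0.00 over all genes. After chromosome medians were subtracted the list median was -0.21, and with 1 line left out it ran from -0.50 to -0.14. Over all alternatives, which include other filters and scalings, its weakest value was -0.013. The mean centred level of the list overlapped, at 0.082, 0.25 and -0.52 against -0.41, 0.21 and 0.39. The side difference is the median log2 CPM of the first 3 lines minus that of the other 3. Sparc, a matricellular glycoprotein, stood at 1.74, 8.04 and 5.54 against 17.9, 14.99 and 36.6 CPM. Snai2 (Slug), a repressor of epithelial genes, stood at 3.89, 3.89 and 4.02 against 6.77, 6.07 and 11.7 CPM. Axl, a receptor tyrosine kinase, stood at 553, 566 and 590.4 against 678, 846 and 749 CPM, a separation of only 1.15-fold at the nearest lines. Zeb1, another repressor, stood at 45.5, 40.6 and 43.6 against 45.7, 57.7 and 67.8 CPM, with the nearest lines 1.004-fold apart (counting interval 0.9075 to 1.11).

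The other well-known mesenchymal genes, named after their values were seen, overlapped. Vim (vimentin) stood at 1465, 2401 and 2101 against 2038, 2763 and 2897 CPM, and only KPC490 was clearly lower. Cdh2 (N-cadherin) stood at 62.8, 82.4 and 109.5 against 0.599, 157 and 89.1 CPM, the low line being KPC142 of the less epithelial side. S100a4 stood at 79.1, 33.3 and 128 against 921, 42.7 and 1222 CPM, with KPC180 among the values of the first side. Twist1 stood at 24.3, 13.8 and 12.4 against 42.4, 0.728 and 0.436 CPM, with KPC180 and KPC469 the 2 lowest lines. Fn1 (fibronectin) and Prrx1 were highest in KPC469, at 2567 and 90.5 CPM, and overlapped in the rest. Extracellular matrix genes gave 1 lower (3.57%, under the 7.30% of all genes) and 0 higher of 28, Lgals1 being the 1.

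The regulators of epithelial identity were likewise split. Of 21 kept transcription and splicing regulators, 3 were higher without overlap (14.3%, beside 7.89% of all genes) and 0 lower, with a median difference of 0.42. The mean centred level of the list overlapped, at 0.49, 0.02 and 0.47 against -0.67, 0.08 and -0.39, with KPC180 above KPC630. Cdx2, a homeobox factor of the intestine, stood at 103, 62.9 and 41.04 against 18.2, 7.83 and 8.99 CPM. Pdx1, which specifies the pancreas, stood at 72.7, 82.5 and 75.8 against 54.2, 43.7 and 59.9 CPM, and Klf3 at 217, 222 and 252 against 179.6, 197 and 182 CPM. Only Cdx2 reached 2-fold, and it lay in descending order from KPC490 to KPC850, against the order of the score. Hnf4a, Gata6, Ehf and Esrp2, named after their values were seen, overlapped. Ehf, an epithelial ETS factor, stood at 31.9, 10.6 and 70.8 against 1.26, 0.425 and 33.2 CPM, with KPC469 above KPC490 and KPC630.

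Polarity and apical traffic had 7 of 22 kept members higher (31.8%, beside 7.89% of all genes) and 1 lower (4.55%, beside 7.30%), with a median of 0.30. The mean centred level of the list overlapped, at -0.05, 0.16 and 0.47 against -0.42, 0.22 and -0.38, with KPC180 above KPC490 and KPC630. Slc9a3r1, a scaffold of apical transporters, stood at 153, 165 and 255 against 109, 96.2 and 78.8 CPM. Myo5c, a motor of secretory granules, stood at 57.96, 58.1 and 140.5 against 8.39, 47.4 and 8.66 CPM, with KPC180 close to the first side. Llgl2, a basolateral polarity protein, stood at 39.6, 38.4 and 52.00 against 24.5, 19.7 and 33.5 CPM. Pard3, a scaffold of the apical polarity complex and located on chromosome 8, was lower at 53.8, 41.7 and 49.4 against 90.3, 114 and 76.8 CPM. Its gap of -0.51 log2 units was -0.11 after chromosome medians were subtracted. Among 9 kept serine proteases and inhibitors, 3 were higher (33.3%, beside 7.89% of all genes) and 0 lower. They were Tmprss2 at 105, 84.3 and 356 against 39.9, 45.3 and 53.1 CPM, Serpinb1a at 13.2, 7.83 and 11.4 against 3.24, 1.09 and 5.34 CPM, and Wfdc2 at 411, 598 and 461 against 349, 383 and 1.74 CPM. Wfdc2 separated narrowly except for KPC469, which had almost none.

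Mucin and glycosylation genes, which build the apical glycocalyx, had 4 of 21 higher (19.05%, beside 7.89% of all genes) and 0 lower. The median difference was 0.06, 0.26 after chromosome medians were subtracted, and -0.02 (without KPC490) to 0.37 (without KPC142) with 1 line left out. Fut2, the secretor fucosyltransferase, stood at 22.4, 11.02 and 10.7 against 2.22, 0.121 and 3.65 CPM. Gcnt3, a branching enzyme of mucin glycans, stood at 146, 108 and 235 against 26.4, 66.5 and 31.7 CPM, and Galnt3, which starts them, at 65.05, 51.7 and 47.9 against 10.5, 21.8 and 33.7 CPM. Cftr, the chloride channel of ducts, stood at 19.6, 30.2 and 15.9 against 0.959, 0.789 and 9.21 CPM, with KPC469 well above the other lines of its side. S100 proteins and annexins had 4 of 20 higher (20%) and 0 lower. S100a14 stood at 40.4, 16.3 and 19.5 against 5.87, 2.49 and 6.16 CPM and Anxa11, an annexin of membrane traffic, at 301, 137 and 191 against 61.8, 54.9 and 58.4 CPM. Both lay at least 2-fold above the second side in every line. The classical PDAC list had 2 of 20 higher (10%), Ceacam1 and the galectin Lgals4 (850.2, 561 and 651 against 129, 85.7 and 417 CPM), and the basal-like list 1 of 8 (12.5%), Tns4. The mean centred level of the classical list overlapped, at 0.24, 0.13 and 0.42 against -0.73, 0.40 and -0.46, with KPC180 above KPC490 and KPC630.

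Of 14 kept chemokines, cytokines and colony-stimulating factors, which act on immune cells, 3 were higher and 2 lower (21.4% and 14.3%, beside 7.89% and 7.30% of all genes). Il1rn, the antagonist of the interleukin-1 receptor, stood at 840.0, 227 and 259 against 18.4, 28.7 and 54.5 CPM. Every line of the first side was at least 4.17-fold above every line of the second, and KPC490 stood far above its own side. Cxcl5, a chemoattractant of neutrophils, stood at 55.3, 53.8 and 195 against 15.9, 2.25 and 19.7 CPM. The remaining higher gene, Mif, is outside the set of named genes. It lies on chromosome 10, with a gap of 0.28 log2 units before chromosome medians were subtracted. The 2 lower genes, Il34 and Ccl25, both lie on chromosome 8, and their gaps of -0.45 and -0.39 became -0.03 log2 units and 0 (overlap) after chromosome medians were subtracted.

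Ptgs2 (COX-2), which begins prostaglandin synthesis, was lower at 97.4, 18.4 and 61.7 against 209, 141 and 259 CPM. KPC490 came within 1.45-fold of KPC180. Among 11 kept genes of major histocompatibility complex (MHC) class I and peptide loading, 2 were higher (18.2%, beside 7.89% of all genes) and 0 lower, both being heavy chains. H2-D1 stood at 162, 209.9 and 223 against 140.5, 81.5 and 71.6 CPM and H2-K1 at 135, 78.4 and 107 against 49.97, 70.8 and 14.9 CPM, with the nearest lines 1.16-fold and 1.11-fold apart. Class I heavy chains are close relatives, so reads could be split between them. Interferon-stimulated genes had 2 of 17 higher (11.8%), Trim25 and Irf1, both under 1.1-fold at the nearest lines. Their median difference was 0.53, but the mean centred level of the list overlapped, at -0.25, 0.30 and 0.34 against -0.19, -0.091 and -0.12, with KPC490 the lowest of the 6 lines. The NF-kB list had 0 of 26 higher and 2 lower (7.69%, near the 7.30% of all genes). Pcdh7, the gene in the study's title, overlapped at 47.6, 3.78 and 132 against 4.31, 109 and 0.109 CPM, with KPC180 high and KPC630 low for their sides.

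Of 22 kept receptor tyrosine kinases and ligands, 3 were higher (13.6%, beside 7.89% of all genes) and 1, Axl, was lower (4.55%, beside 7.30%). Fgfr4, a fibroblast growth factor receptor, stood at 20.8, 15.8 and 11.8 against 2.397, 4.85 and 0.654 CPM. Erbb3, a receptor for neuregulins, stood at 30.1, 28.1 and 24.9 against 13.9, 10.9 and 6.87 CPM, and Egfr at 41.6, 89.2 and 37.5 against 6.95, 31.7 and 24.03 CPM. Fgfr4 alone reached 2-fold, and Erbb3 lies on chromosome 10, where its gap went from 0.84 to 0.49 log2 units after centring. In the TGF-beta and BMP list 3 of 36 were higher and 3 lower (8.33% each), near the share over all genes. Tgfbr1, a TGF-beta receptor, stood at 61.3, 48.1 and 33.9 against 105, 98.7 and 78.6 CPM, and Smad1 on chromosome 8 at 24.7, 18.9 and 23.1 against 33.3, 36.4 and 41.9 CPM, against the direction of Smad9. The sides overlapped for Smad1 after centring.

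Integrins bind cells to the matrix, and 1 of 21 kept integrins and laminins was higher and 1 lower (4.76% each, under the 7.89% and 7.30% of all genes). Itgb1, the common beta chain of many integrins, was lower at 499.7, 546 and 471 against 1215, 1118 and 952 CPM, and Itgb3, the beta chain of a vitronectin receptor, was higher at 53.4, 79.1 and 90.9 against 33.4, 21.5 and 18.96 CPM. Itgb1 is on chromosome 8, and its gap went from -0.80 to -0.39 log2 units on centring. Mmp14, a membrane-bound metalloprotease, was higher at 147, 209 and 171 against 31.9, 110.1 and 42.1 CPM, while Mmp13, a secreted collagenase, was lower at 5.81, 2.98 and 5.25 against 6.71, 17.4 and 10.2 CPM. The metalloprotease list gave 1 higher and 2 lower of 17 (5.88% and 11.8%). In the list of actin and focal adhesion genes, Arhgap29, a GTPase-activating protein, was higher at 20.7, 36.5 and 10.1 against 1.26, 5.58 and 2.34 CPM.

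In metabolism, glycolysis had 5 of 20 kept members higher (25%, beside 7.89% of all genes) and 0 lower. The mean centred level of the list overlapped, at 0.45, -0.04 and 0.21 against 0.18, -0.29 and -0.51, with KPC142 above KPC630. Tpi1, triosephosphate isomerase, stood at 1374, 922 and 957 against 742, 732 and 525 CPM, and Hk2, a hexokinase, at 271, 181 and 176 against 151, 141 and 102 CPM. Both were highest in KPC490 and lowest in KPC469, and the nearest lines were 1.24-fold and 1.17-fold apart. Of the 5, Hk1 and Pfkl lie on chromosome 10, and both genes overlapped after centring. The hypoxia list had 5 of 23 higher (21.7%) and 1 lower (Egln1, on chromosome 8), with P4ha2, which hydroxylates collagen, at 26.8, 47.9 and 31.7 against 21.2, 11.5 and 4.52 CPM. Cholesterol synthesis had 0 of 25 without overlap in either direction, and its median of 0.40 turned to -0.11 without KPC490 and to -0.01 without KPC850.

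The unfolded protein and integrated stress response had the lowest median of the 38 lists, -0.52 log2 units, with 4 of 30 kept members lower (13.3%, beside 7.30% of all genes), 1 higher and 23 with a negative difference. The mean centred level of the list overlapped between the sides, at 0.13, -0.39 and -0.25 against 0.59, -0.41 and 0.33, with KPC180 the lowest of the 6 lines, and the median difference ran from -0.67 (without KPC490) to -0.30 (without KPC630) with 1 line left out. Atf6, a sensor of the endoplasmic reticulum, stood at 80.8, 69.9 and 102 against 165, 134 and 185 CPM. Atf4, the main factor of the integrated stress response, stood at 321, 341 and 327 against 572, 387 and 463 CPM, and Phgdh, the first enzyme of serine synthesis, at 699, 599 and 588 against 1096, 893 and 989 CPM. The 3 genes were highest in KPC142 or KPC469 and the nearest lines were 1.13-fold to 1.31-fold apart. Hsp90b1, a chaperone, was higher at 738, 676 and 627 against 507, 532 and 508 CPM, but it lies on chromosome 10 and overlapped after centring. Among targets of NRF2, the regulator of antioxidant genes, 3 of 29 were higher (10.3%, beside 7.89% of all genes) and 1 lower (3.45%). Gsta4, a glutathione transferase, stood at 363, 377 and 566 against 81.2, 104 and 139.8 CPM and Abcc3, an exporter of conjugates, at 127, 254 and 335 against 53.9, 70.1 and 68.7 CPM. Hmox1, haem oxygenase, was lower at 25.8, 23.5 and 26.9 against 60.8, 31.9 and 67.6 CPM. It is on chromosome 8 and overlapped after centring. Gsta1, at 31.5, 43.8 and 66.6 against 8.03, 12.4 and 16.9 CPM, belongs to a family of close copies and is uncertain.

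The remaining lists are given by their counts of higher and lower members, beside 7.89% higher and 7.30% lower over all genes. Fatty acid and lipid metabolism had 4 higher and 0 lower of 31 (12.9% higher), with Fabp5 the 1 member at 2-fold. Non-clustered protocadherins and other cadherins had 2 and 1 of 17 (11.8% and 5.88%), with Cdhr1, a cadherin of photoreceptors, at 9.87, 11.98 and 0.758 against 0, 0.121 and 0.0545 CPM. Its values on the second side rest on at most 2 counts, and the nearest lines had a ratio of 6.24 with a counting interval of 1.41 to 56.99. Ligands and enzymes that restrain T cells gave 2 and 1 of 16 (12.5% and 6.25%), with Ceacam1 at 2-fold. Cell cycle genes gave 2 higher and 0 lower of 38 (5.26% higher), nuclear genes of oxidative phosphorylation 2 and 2 of 36 (5.56% each). The Wnt pathway gave 0 and 1 of 22 (4.55% lower), the Notch pathway 1 and 0 of 16 (6.25% higher). MAPK output gave 3 and 2 of 30 (10% and 6.67%), the YAP/TAZ pathway 2 and 4 of 30 (6.67% and 13.3%). The p53 pathway gave 2 and 0 of 21 (9.52% higher), PDAC driver genes 2 and 1 of 24 (8.33% and 4.17%). Ephrins, semaphorins and plexins gave 3 and 1 of 31 (9.68% and 3.23%). Epithelial ion channels and carriers gave 2 and 0 of 26 (7.69% higher), and prostaglandin metabolism 1 and 1 of 12 (8.33% each). Apart from the lower share of the YAP/TAZ pathway, the shares from the cell cycle on were near or under those of all genes. In the lists from the cell cycle on, no member reached 2-fold. Dtx4, a Notch regulator, stood at 34.4, 43.8 and 32.8 against 17.9, 11.05 and 21.2 CPM. Stk11, a tumour suppressor kinase, stood at 107, 106 and 96.9 against 64.8, 72.6 and 77.6 CPM. It lies on chromosome 10 and overlapped after centring.

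**Figure D3:**
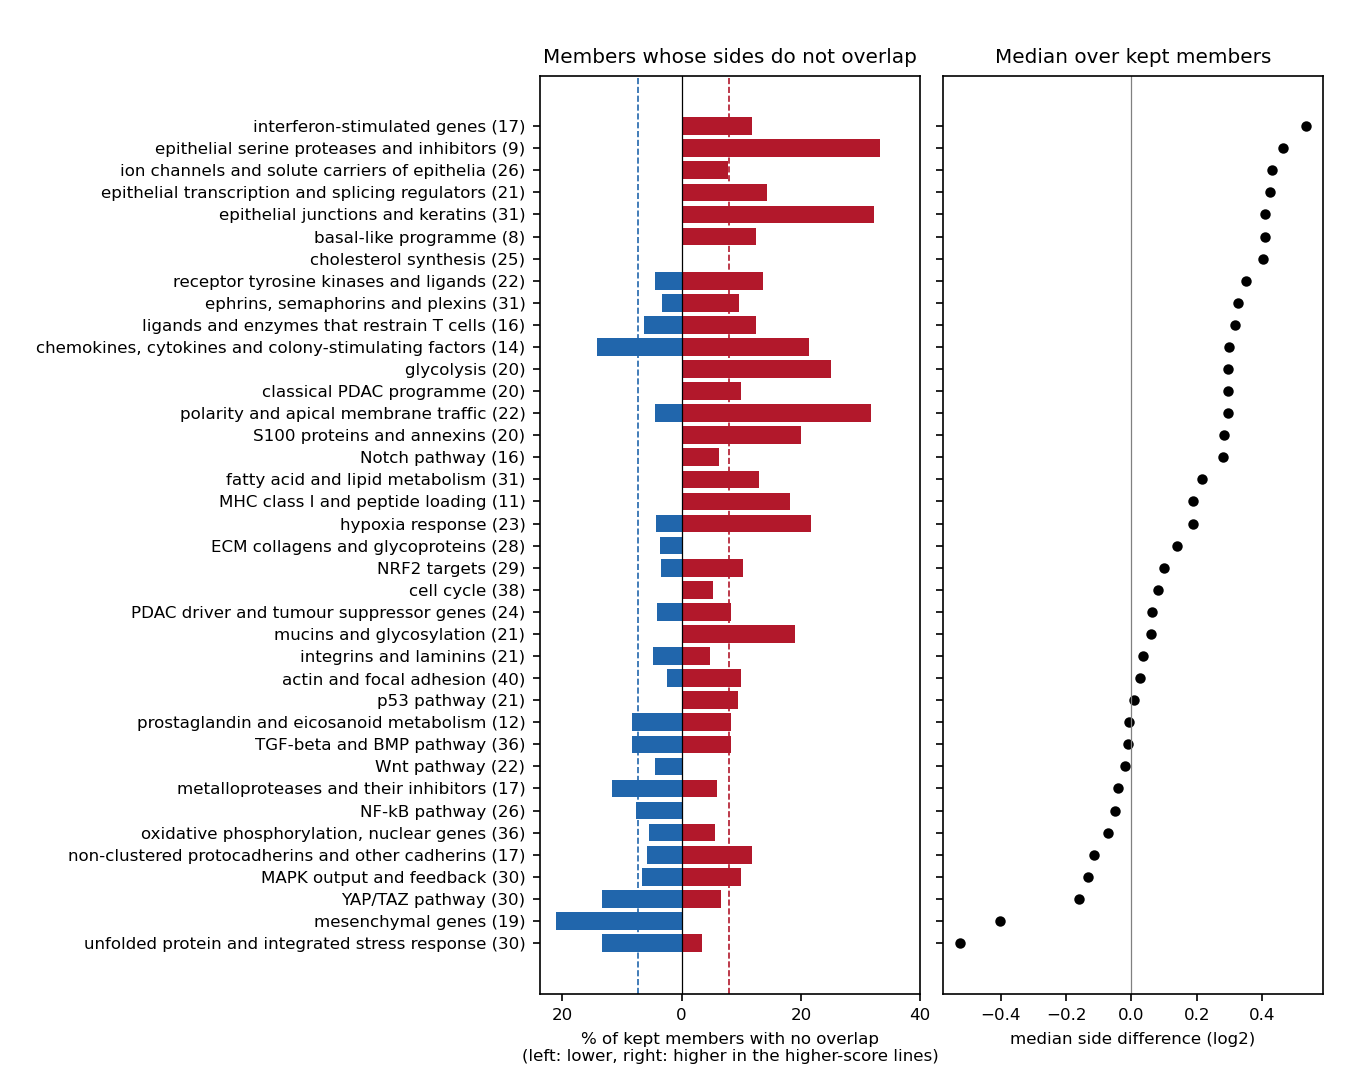
For each of the 38 gene lists, with the number of kept members in brackets, the left panel gives the percentage of kept members without overlap between the sides (red to the right, higher in the lines with the higher score, and blue to the left, lower; dashed lines mark 7.89% and 7.30% of all genes), and the right panel the median side difference in log2 units. Genes of the junction and keratin kind set the sides, so that list stands high by construction. Polarity reaches 31.8%, although its mean centred level overlaps between the sides, and the stress response has the lowest median, -0.52.

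The lower genes were concentrated on 1 chromosome. For each line and chromosome, the median over genes of log2 CPM relative to the gene's own median over the 6 lines was taken. Chromosome 8 stood at -0.21, -0.22 and -0.25 log2 units in KPC490, KPC630 and KPC850 and at 0.22, 0.34 and 0.19 in KPC142, KPC180 and KPC469. Its 578 genes are 5.65% of those kept and gave 326 of the 747 lower genes, or 43.6%, so that 56.4% of its genes were lower without overlap and 3 genes were higher. Away from chromosome 8, 421 of 9656 genes (4.36%) were lower. Cdh1, Cdh3 and Esrp2 are among the genes of this chromosome, and the side difference of Cdh1 was -0.14 log2 units before and 0.30 after the chromosome medians were subtracted. The sides overlapped for Cdh1 in both cases.

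Chromosome 10 had the reverse pattern. Its medians were 0.34, 0.09 and 0.06 in the more epithelial lines and -0.27, -0.08 and -0.14 in the others. It gave 172 of the 807 higher genes (21.3%), and 36.2% of its 475 genes were higher without overlap. Chromosome 16 was the only other chromosome without overlap, by 0.01 log2 units, and 17 of the 20 overlapped. Among these 17, chromosome 11 gave 149 of the 807 higher genes (18.5%), and 17.6% of its 849 genes were higher without overlap. Its medians were -0.002, 0.12 and 0.10 against -0.25, -0.14 and 0.008, overlapping because KPC469 lay just above KPC490. The side difference of its medians was 0.24 log2 units, beside 0.23 on chromosome 10. Chromosomes 8 and 10 were each divided into 10 runs of neighbouring genes. The sides did not overlap in 9 runs of chromosome 8, the exception being the first, where KPC630 stood at 0.23. On chromosome 10 they did not overlap in 10 of 10 runs.

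**Figure D4:**
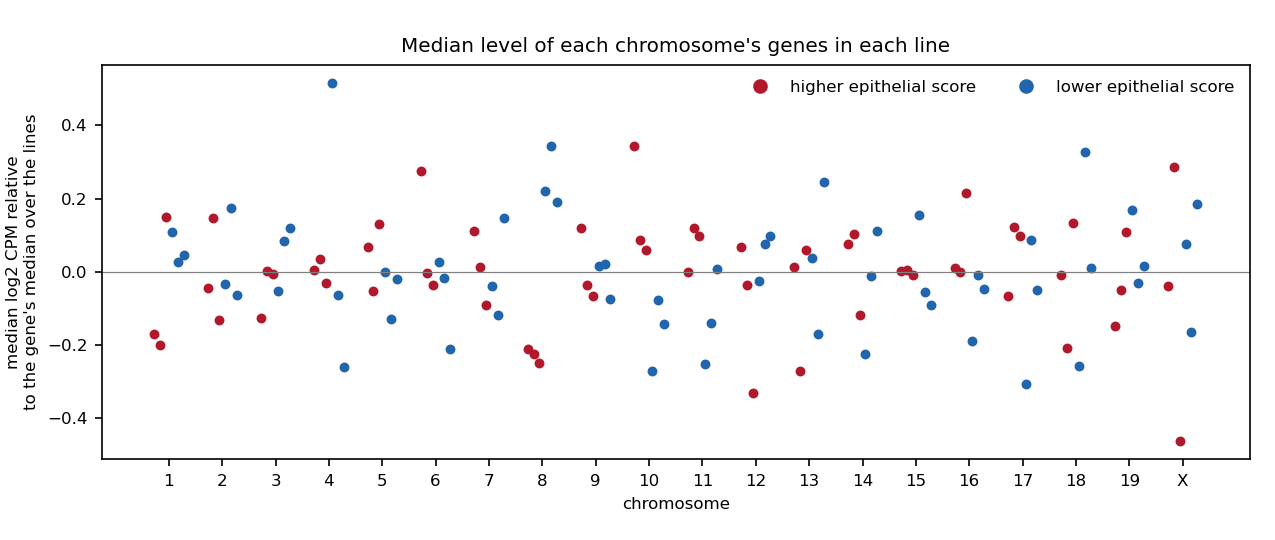
Each point is the median over a chromosome's kept genes of log2 CPM relative to the gene's median over the 6 lines, in 1 library, red for the 3 lines with the higher epithelial score and blue for the other 3. On chromosome 8 the red points lie between -0.25 and -0.21 and the blue ones between 0.19 and 0.34, and on chromosome 10 the order is the reverse.

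**Figure D5:**
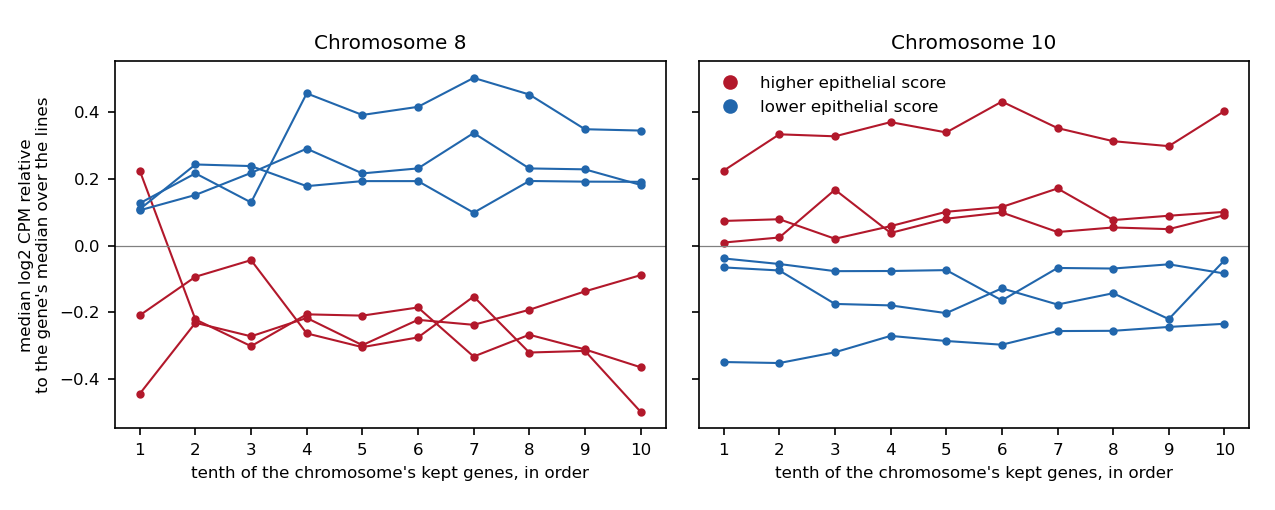
The same medians are drawn for 10 runs of neighbouring kept genes of chromosomes 8 and 10, in their order along the chromosome, 1 line per library, red for the higher epithelial score and blue for the lower. The colours are apart in every run except the first of chromosome 8, where KPC630 reaches 0.23.

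After each line's chromosome medians were subtracted, 445 of the 807 higher and 339 of the 747 lower genes remained without overlap. Of the genes separated by at least 2-fold, 44 of 50 and 8 of 8 remained so. A small shift removes narrow gaps more readily than wide ones, so these shares differ by construction. Among genes named above, Klf3, Zeb1, Tns4, H2-D1, Trim25, Irf1 and Egfr, on chromosomes other than 8 and 10, also overlapped after this centring. Of these, Tns4, Trim25, Irf1 and Egfr lie on chromosome 11. The part of the chromosome medians in the difference of any single gene was not tested.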

How the data were processed

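Poly(A) RNA of 6 mouse PDAC lines was sequenced, 1 library per line, from total RNA and a stranded mRNA kit, per the labels' protocols. The deposited values are the authors' expected counts per Ensembl gene. RSEM 1.3.3, STAR 2.7.10b, Trimmomatic 0.36 and the build GRCm39 are listed in the submitters' processing notes, without their order. Between 5.28% and 5.66% of a library's values were fractional, and all were rounded to whole numbers. The sharing of reads among close copies of a gene could change the values of those genes.

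CPM used totals adjusted by TMM factors (0.986 to 1.01, edgeR 4.0.16 in R 4.3.3), and log2 CPM a prior count of 2. Genes with at least 10 CPM in any line were kept; the nearest values were 10.01 and 9.99 CPM. Ratios of 2 lines have exact conditional binomial 95% intervals that cover counting error only. Symbols from GENCODE vM21 and the supplied name table matched 52029 of 56953 identifiers; chromosomes and gene order came from the same annotation, which is on another build, and no coordinates were taken from it. Promoter letters are from RefSeq. The gap calculation was tested on simulated data.

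The sides, the 38 gene lists and the 10 marker lists were chosen with earlier results of these data known. Named genes were the 15 with the widest gap in each direction outside the junction and keratin list, up to 4 members per list, Krt7, Krt19, Tjp3, Spint1 and Pcdh7; predicted genes without an approved symbol were left unnamed, and other genes are said to be chosen after their values were seen. Some genes that the rule takes are left out of the text. No test was made. The alternatives were another scaling (DESeq2 1.42.0 size factors, unadjusted totals), other filters and prior counts, each line left out, the chromosomes or the list that follow the sides left out and, added after the data were seen, a filter on the mean and chromosome centring.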

Additional observations from a re-analysis of the deposited data

How the results depend on the processing

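The main counts were 50 higher and 8 lower genes separated by at least 2-fold and 807 higher and 747 lower genes without overlap. They stayed within 1.5 times under DESeq2 size factors, unadjusted totals, at least 5 CPM, both other prior counts, without the junction and keratin list, and after chromosome centring, which was chosen after the data were seen. A level of 20 CPM gave 31 higher genes at 2-fold, and at least 1 count in a line gave 102 higher and 43 lower genes at 2-fold and 1514 lower genes without overlap. The filterByExpr filter, which asks for counts in every line, gave 30 higher genes at 2-fold. A mean of at least 10 CPM, chosen after the data were seen, gave 28 higher and 5 lower genes at 2-fold. Without chromosomes 8, 10 and 16, 418 lower genes had no overlap. Leaving out each line in turn, which leaves 2 lines on a side and makes separation easier, gave 70 to 121 higher and 22 to 48 lower genes at 2-fold, and 1181 to 1502 higher and 1076 to 1384 lower genes without overlap. List medians were unsteady: 37 of 38 moved by over 0.1 log2 units under some alternative, 17 changed sign, and of the 13 of at least 0.3 in size 1 did so, cholesterol synthesis. Its median difference was -0.11 to 1.06 with 1 line left out, at -0.11 without KPC490, -0.01 without KPC850 and 1.06 without KPC180. After chromosome centring the side differences of Ier2, Gadd45b and Ptges3 changed sign, to 0.057, -0.12 and -0.049 log2 units. No other of the 143 named genes without overlap changed sign under any alternative, while 7 of the 19 named genes that overlap did, Cdh1 and Cdh2 among them. For a gene without overlap, leaving out a line, another filter or another prior count cannot change the sign. Only another scaling or chromosome centring could, so this contrast was largely fixed in advance and does not measure steadiness. No paired analysis was possible because each line has 1 library and the result comes from no test. With 1 library per line, variation between cultures of a line could not be measured, and genes near the floor of 3 counts have wide intervals.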
